A study of Mus musculus with 12 samples.

Results

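The genes described here are a list of 39 mouse genes of the endoplasmic reticulum (ER) chaperone and unfolded protein response (UPR) system, chosen by name. Of these, 38 were matched to one of the 27179 genes counted in the series, and all 38 were among the 12057 genes with enough counts to be tested. Ero1l was matched through its synonym Ero1a, and Hsp90ab2 was not matched and is not analysed here. The series followed the RNA of AML246 cells, a cytogenetically normal acute myeloid leukemia on the C57BL/6 background that lacks p53 (p53-/-) and carries a short hairpin RNA against PU.1 (shPU.1). PU.1 is the myeloid transcription factor encoded by Spi1. The hairpin is linked to green fluorescent protein (GFP), and doxycycline (Dox) given to the leukemic mice turned the hairpin off, so that the cells' own PU.1 returned over days.

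The 12 libraries were divided into 4 groups of 3. These were GFPhigh cells of untreated mice, GFPhigh-mid cells after 2 days of Dox, GFPmid cells after 4 days and GFPlow cells after 6 days, all p53-/- shPU.1 and all sorted from the bone marrow of leukemic recipients. The sort gate moved with the time on Dox, so gate and time cannot be told apart, and no group had Dox without the hairpin. AML246 is a single leukemia. Titles label the replicates as technical whereas the design text mentions triplicate mice, so the p-values rest on a spread between libraries that may be only technical.

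Proteins that are secreted or sit in membranes enter the ER through a translocation channel, lose their signal peptide and fold with the help of chaperones and disulfide-forming enzymes, while misfolded ones are sent back to the cytosol for degradation. When folding falls behind, the sensors IRE1, ATF6 and PERK start the UPR, which raises chaperone and degradation genes and slows translation. Granulocyte precursors make large amounts of granule proteins in the ER, and mature neutrophils carry little ER.

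The libraries held 4918920 to 7356166 counts each. Spi1 averaged 62.5 CPM before Dox, then 109 (day 2), 259.8 (day 4) and 458 (day 6). CPM here means counts scaled to a common library size adjusted by TMM, the trimmed mean of M values. The primary granule genes Mpo, Elane, Prtn3 and Ctsg summed to 7394 to 9249 CPM at day 6, against 27768 to 31682 CPM in untreated cells. The neutrophil genes Ltf, Camp, Ngp, Mmp8, S100a8 and S100a9 summed to 59051 to 132860 CPM at day 6, against 574 to 1588 CPM in untreated cells. Replicate 2 of day 6 stood apart. Its counts differed from replicates 1 and 3 of day 6 by a mean chi-square per gene of 44.3 and 38.6, while the other replicate pairs lay between 2.62 and 10.5. That library had less of the neutrophil genes (59051 CPM, against 132860 and 116594 CPM in replicates 1 and 3) and more of 5 monocyte genes (2925 CPM, against 944 and 1108 CPM). Its sum of 6 T and NK cell genes was higher (40.0 CPM, against 4.47 and 4.29 CPM). Most of that sum was Lck (129 counts) and Cd8a (71 counts). The NK cell gene Ncr1 went the other way, with 0 counts, against 4 and 9 in replicates 1 and 3. Day 6 values of the 38 genes and the day 6 counts of calls are given with and without it.

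Several of the genes carry the ER stress response element (ERSE), which reads CCAAT, 9 further bases and CCACG, and to which activated ATF6 and the factor NF-Y bind. Promoter windows of RefSeq (GRCm38.p6, 250 bases before to 50 bases after the start of a transcript) were given for 30 of the 38 genes. An ERSE on either strand was found in 9 of the 30, namely Hspa5, Hsp90b1, Calr, Canx, Dnajc3, Pdia6, Creld2, Syvn1 and Derl3, against 37 of all 27025 genes with a window (0.137%). ERSE-II, which reads ATTGG, 1 further base and CCACG, was found in Herpud1 and Dnajb11, against 0.0444% of genes. The UPR element TGACGTGG was found in Txndc5, against 0.714% of genes, and TGATGNAAT, one form of the C/EBP-ATF response element, was found in 0 of the 30, against 1.08% of genes. The following stretches are those of some of these chaperone, folding enzyme and ER-associated degradation (ERAD) genes, written 5′ to 3′ on the gene's strand, with the element in capitals. Those of Dnajc3, Creld2 and Derl3 are not printed. An element on the opposite strand reads CGTGG first.
Hspa5 (chr2:34771840-34772089, plus strand): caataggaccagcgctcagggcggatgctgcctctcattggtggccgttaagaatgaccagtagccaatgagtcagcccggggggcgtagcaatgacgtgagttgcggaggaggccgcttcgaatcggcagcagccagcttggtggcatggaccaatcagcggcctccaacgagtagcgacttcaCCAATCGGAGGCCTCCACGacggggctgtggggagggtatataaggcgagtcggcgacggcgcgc
Hsp90b1 (chr10:86705513-86705676, minus strand): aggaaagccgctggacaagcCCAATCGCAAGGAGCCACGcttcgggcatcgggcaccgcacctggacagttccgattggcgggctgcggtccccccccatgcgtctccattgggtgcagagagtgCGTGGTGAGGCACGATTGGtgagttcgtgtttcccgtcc
Calr (chr8:84847055-84847113, minus strand): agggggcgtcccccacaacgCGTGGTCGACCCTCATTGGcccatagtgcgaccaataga
Canx (chr11:50325780-50325838, minus strand): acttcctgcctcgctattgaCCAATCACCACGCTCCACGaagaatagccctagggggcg
Pdia6 (chr12:17266471-17266529, plus strand): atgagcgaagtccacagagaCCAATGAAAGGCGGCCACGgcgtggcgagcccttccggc
Syvn1 (chr19:6046512-6046570, plus strand): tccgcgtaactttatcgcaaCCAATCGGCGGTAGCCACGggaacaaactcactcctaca
Herpud1 (chr8:94386357-94386407, plus strand): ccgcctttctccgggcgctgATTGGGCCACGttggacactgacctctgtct
The stretches show that Hsp90b1 has 2 copies of the ERSE and that the elements of these genes begin between 212 and 44 bases before the start. A match is a description of letters in this window and does not show binding.

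At day 6, 14 of the 38 genes were lower and 7 higher than in untreated cells (edgeR quasi-likelihood test, Benjamini-Hochberg adjusted p under 0.05, the rule for every call below), against 32.9% of all tested genes lower, 35.0% higher and 67.9% called in either direction. The share of lower calls was near the background, and the share of higher calls was under it. Chaperones, folding enzymes and the translocation channel held 11 of the 14 lower genes, and sensors, regulators and ERAD genes held 6 of the 7 higher ones, a split that was not tested. The median log2 fold change of the 38 genes was −0.25, against −0.00 for all tested genes. With all libraries no chaperone and no folding enzyme was called higher. The day 6 libraries were all below the untreated ones in 15 of the 38 genes and all above them in 8, against 33.9% and 34.3% of all tested genes. Called falls of at least 2-fold were seen in 5 of the genes (Txndc5, Calr, Ern1, Ppp1r15a and Ssr2), and called rises of that size in 0, against 15.2% and 16.9% of all tested genes. Without day 6 replicate 2, 20 genes were lower and 8 higher, against 34.6% and 36.1% of all tested genes, and the median was −0.41.

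**Figure D1:**
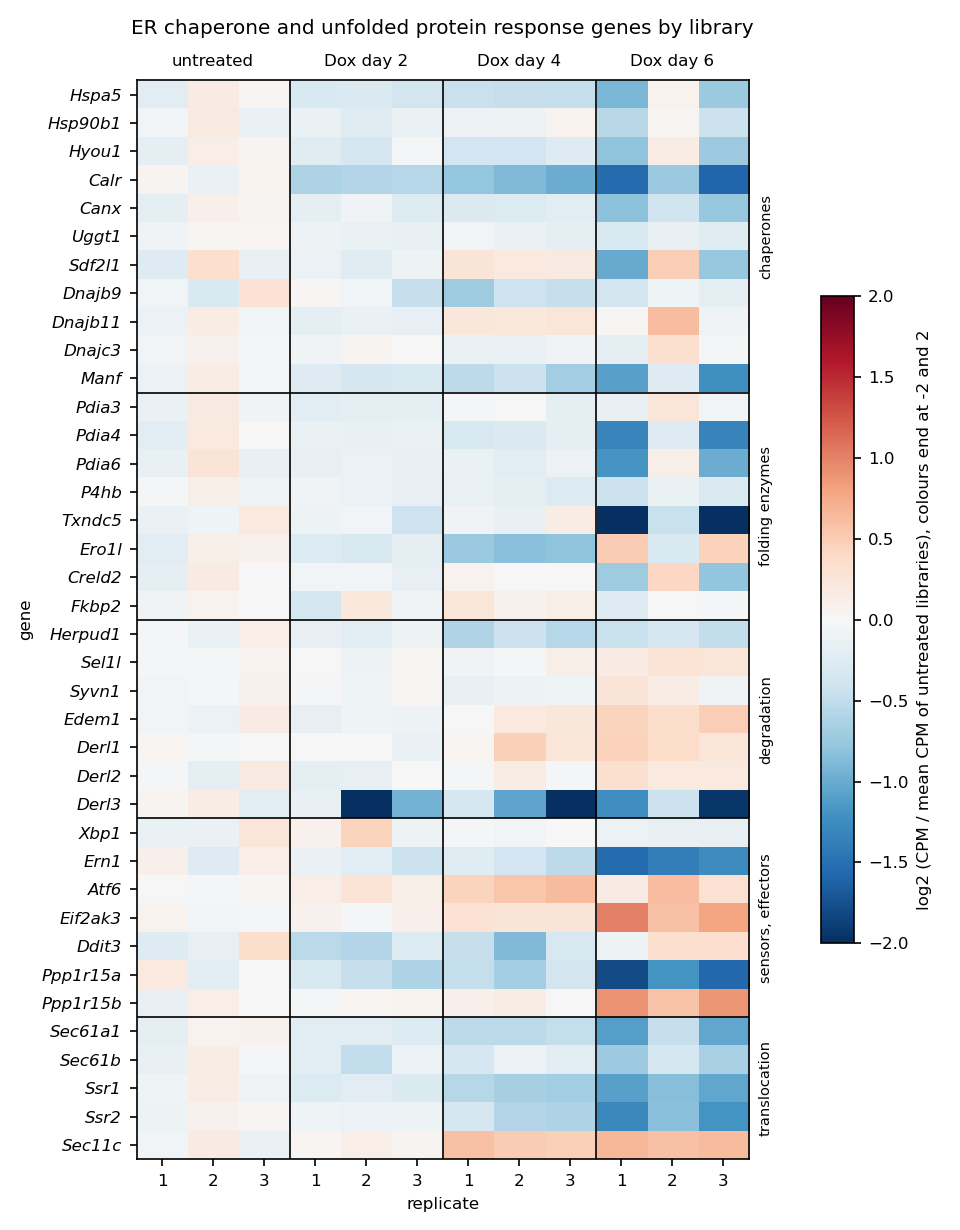
Levels of the 38 genes in each of the 12 libraries (columns, by day of Dox and replicate) as log2 of CPM over the mean CPM of the untreated libraries, genes in rows grouped by role. Calr, Txndc5, Ern1, Ppp1r15a and the translocation genes other than Sec11c are below the untreated mean at day 6, and in the chaperone and folding enzyme rows other than Ero1l the day 6 replicate 2 column is less blue, or more red, than its neighbours.

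The summed RNA of the 38 genes was 9803, 13144 and 10199 CPM in the day 6 libraries, against 13015 to 14656 CPM in the untreated ones. As a plain share of all counts it was 0.866% ± 0.215 at day 6 and 1.55% ± 0.0531 in untreated cells (SD, n = 3 each). Replicate 2 of day 6 lay inside the untreated range by TMM CPM, and replicates 1 and 3 lay below it. These are bulk values, in which fewer cells of a type and less RNA per cell cannot be told apart. Among plasma and B cell genes, the markers of the other marrow cells rich in ER, Mzb1 had at most 5 counts in any library. The sum over the 10 genes of that list was 2.73 to 3.41 CPM at day 6 and 19.0 to 35.4 CPM in untreated cells, with 3 to 5 of the 10 genes at 0 in each day 6 library. Most of the untreated sum was Sdc1 (74 to 216 counts, and 1 to 3 at day 6) and Jchain (3 to 69 counts, and 0 to 4 at day 6). Cd79a went the other way (0 to 5 counts in untreated cells and 5 to 6 at day 6). Each remaining gene of the list had at most 10 counts in any library. Erythroid genes summed to at most 4.45 CPM and megakaryocyte genes to at most 7.86 CPM in any library. The 5 stroma and endothelium genes summed to 20.1 to 27.1 CPM at day 6, against 86.2 to 128 CPM in untreated cells, with 1 of the 5 at 0 in each day 6 library. Most of this sum was Cxcl12 (14 to 28 counts at day 6, 226 to 360 in untreated cells) and Pecam1 (78 to 93 and 351 to 584 counts). Col1a1 went the other way (9 to 18 and 0 to 6 counts), and Col1a2 and Cdh5 had at most 2 counts in any library. The 5 monocyte genes summed to 168 to 270.3 CPM in untreated cells, then 379 to 667 CPM at day 2, 2237 to 2801 CPM at day 4 and 944 to 2925 CPM at day 6. The part of these marker sums in the results was not tested.

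Among the 11 chaperones and co-chaperones, Calr, Canx, Manf and Uggt1 fell by day 6 and 7 did not pass the test. These 4 lower and 0 higher genes stood against 32.9% and 35.0% of all tested genes. Calr, which encodes the lectin chaperone calreticulin, had 1781, 1568 and 1795 CPM in untreated cells, then 1121, 1148 and 1153 CPM at day 2, 999.8, 931 and 859.6 CPM at day 4 and 591, 1024 and 569 CPM at day 6. Each Dox library was below each untreated one. The log2 change was −0.59 ± 0.18 at day 2 (SE, adjusted p = 0.159 by edgeR), −0.88 ± 0.18 at day 4 (adjusted p = 0.00223) and −1.24 ± 0.18 at day 6 (adjusted p = 7.63e-05). Without day 6 replicate 2 the day 2 difference passed as well (adjusted p = 0.000918). Its membrane-bound partner Canx, calnexin, had 553, 736 and 576 CPM at day 6, against 864, 1041 and 1014 CPM in untreated cells, with no overlap. Canx fell by 0.65 ± 0.12 on the log2 scale (adjusted p = 0.000323 by edgeR). Uggt1, the folding checkpoint that returns glycoproteins to both lectins, had 355, 396 and 369.6 CPM at day 6 and 415, 449 and 449 CPM in untreated cells, a fall of 0.23 on the log2 scale (adjusted p = 0.0181 by edgeR) that was not called without untreated replicate 2 or 3 or day 6 replicate 1 or 3 (adjusted p = 0.0511 to 0.071). Manf, a secreted factor of the stressed ER, had 96.1, 169 and 87.4 CPM at day 6 and 187, 226 and 198 CPM in untreated cells, and it fell by 0.79 (adjusted p = 0.00386 by edgeR). Without day 6 replicate 2 the log2 values were −1.56 for Calr, −0.79 for Canx, −0.27 for Uggt1 and −1.15 for Manf, all called.

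Hspa5, which encodes the central ER chaperone BiP, had 1237, 1609 and 1475 CPM in untreated cells, then 1168, 1182 and 1115 CPM at day 2, 1062, 1046 and 1041 CPM at day 4 and 762, 1519 and 859 CPM at day 6. All day 4 libraries were below all untreated ones, and at day 6 replicates 1 and 3 were the lowest of the course while replicate 2 was inside the untreated range. At day 4 the log2 difference was −0.46 ± 0.20 (adjusted p = 0.0918 by edgeR). This day 4 fall was called in a fit of only the 2 groups (adjusted p = 0.0033) and without day 6 replicate 2 or 1 (adjusted p = 0.000894 and 0.0479). The log2 difference was −0.46 ± 0.20 at day 6 (adjusted p = 0.0629 by edgeR) and −0.83 ± 0.11 without replicate 2 (adjusted p = 6.23e-06). It was also called lower by DESeq2 (adjusted p = 0.0401), by limma voom (adjusted p = 0.035), with upper-quartile factors and library totals, and without untreated replicate 1 (adjusted p = 0.0492). Hsp90b1, the ER member of the HSP90 family, had 733, 1112 and 796 CPM at day 6, against 1034, 1214 and 985 CPM in untreated cells (adjusted p = 0.0863 by edgeR). Hyou1, a large HSP70-related chaperone, had 193, 375 and 203 CPM at day 6, against 295, 368 and 349 CPM (adjusted p = 0.118). The same 2 libraries were low and the same library was high in both genes, and each was called lower without replicate 2, with log2 values of −0.50 and −0.77 (adjusted p = 0.000555 and 2.14e-05 by edgeR), and with upper-quartile factors and library totals. Sdf2l1, a cofactor of BiP, had 66.9, 188 and 79.6 CPM at day 6, against 112, 168 and 121 CPM in untreated cells. Of the alternatives tried it passed only without replicate 2 (log2 −0.87, adjusted p = 0.000161 by edgeR).

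With TMM the DnaJ co-chaperones were close to their untreated levels at day 6. Dnajb9 averaged 53.7 ± 5.31 CPM at day 6 and 62 ± 12.9 CPM in untreated cells (SD, n = 3 each). Dnajb11 averaged 149 ± 41.2 CPM at day 6 and 127 ± 12.5 CPM in untreated cells. Dnajc3 averaged 283 ± 52.8 CPM at day 6 and 273 ± 13.7 CPM in untreated cells. None of the 3 passed at day 6 with TMM, with or without replicate 2, without which the log2 values were −0.27, −0.03 and −0.11 in the same order. Dnajb9 was called lower at day 6 with upper-quartile factors (−0.45, adjusted p = 0.0238 by edgeR) and library totals (−0.72, adjusted p = 0.00225). Dnajc3 was called lower with library totals (−0.45, adjusted p = 0.0107). Dnajb9 was lower at day 4, with 38.1, 46.4 and 44.9 CPM, against 59.7, 50.3 and 75.9 CPM in untreated cells (log2 −0.52 ± 0.16, adjusted p = 0.0203 by edgeR), but not without untreated replicate 3 or day 4 replicate 1 (adjusted p = 0.0956 and 0.0777).

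The 8 folding enzymes, most of them protein disulfide isomerases or their partners, gave 3 lower, 0 higher and 5 uncalled genes at day 6. Of all tested genes 32.9% were lower and 35.0% higher. Txndc5, a disulfide isomerase, had 113, 118 and 143 CPM in untreated cells, then 116, 120.1 and 93.5 CPM at day 2, 119, 113 and 139 CPM at day 4 and 27.7, 91.2 and 20.3 CPM at day 6. Its level stayed within 93.5 to 143 CPM up to day 4 and was below that range in each day 6 library. It fell by 1.40 ± 0.43 on the log2 scale at day 6 (adjusted p = 0.0133 by edgeR), and by 2.38 ± 0.17 without replicate 2 (adjusted p = 6.21e-08), while without day 6 replicate 1 the adjusted p was 0.0551. Pdia4, another isomerase, had 106, 221 and 104 CPM at day 6, against 226, 301 and 263 CPM in untreated cells, and it fell by 0.87 ± 0.24 (adjusted p = 0.00676 by edgeR), and by 1.33 ± 0.11 without replicate 2 (adjusted p = 6.38e-08). P4hb, the founding disulfide isomerase, had 698, 862 and 767 CPM, against 913, 1018 and 889 CPM, and it fell by 0.28 ± 0.10 (adjusted p = 0.0211 by edgeR), and by 0.36 without replicate 2. The fall of P4hb was the smallest of the 3, its groups did not overlap, and it was not called without untreated replicate 2 or day 6 replicate 1 or 3 (adjusted p = 0.0567 to 0.0954).

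In the edgeR fit by group with TMM, Pdia6 and Creld2 passed without replicate 2 and not with all libraries. Pdia6 had 217, 534 and 248 CPM at day 6, against 446, 590.0 and 446 CPM in untreated cells (log2 −0.57, adjusted p = 0.0841 by edgeR; without replicate 2, log2 −1.09, adjusted p = 1.21e-06), and DESeq2 and limma voom called it lower with all libraries (adjusted p = 0.0455 and 0.0405). Creld2 had 41.8, 91.5 and 39.6 CPM, against 60, 76.6 and 69.3 CPM (adjusted p = 0.416 by edgeR, and 1.97e-05 without replicate 2). With all libraries edgeR called Pdia6 lower with the replicate block, upper-quartile factors and library totals (adjusted p = 0.0353, 0.0258 and 0.0104). It called Creld2 lower with library totals (log2 −0.72, adjusted p = 0.0416). The day 6 values of both genes overlapped the untreated ones, and for Creld2 they spanned them. Pdia3, the isomerase that works with calnexin and calreticulin, averaged 1081 ± 156 CPM at day 6 and 1064 ± 128 CPM in untreated cells (SD, n = 3 each). The prolyl isomerase gene Fkbp2 averaged 45.3 ± 4.36 CPM at day 6 and 48.1 ± 2.3 CPM in untreated cells. Neither was called at any day with TMM, and without replicate 2 the day 6 log2 values were −0.10 for Pdia3 and −0.14 for Fkbp2, neither called. With library totals both were called lower at day 6 (−0.48 for Pdia3 and −0.60 for Fkbp2, adjusted p = 0.00645 and 0.00181 by edgeR). Fkbp2 was also called lower with upper-quartile factors (−0.33, adjusted p = 0.036).

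Ero1l, the oxidase that recharges the disulfide isomerases, went down and came back. It had 204, 257 and 251 CPM in untreated cells, then 196, 190.3 and 206 CPM at day 2, 142, 133 and 136 CPM at day 4 and 336, 192 and 326 CPM at day 6. The day 4 libraries were below all others, and day 6 replicates 1 and 3 were above all others. Ero1l was lower at day 4 than untreated by 0.79 ± 0.17 on the log2 scale (adjusted p = 0.00311 by edgeR) and higher at day 6 than at day 4 by 1.05 ± 0.17 (adjusted p = 0.000482 by edgeR). Against untreated cells the day 6 difference was 0.26 ± 0.17 (adjusted p = 0.194 by edgeR) and 0.48 ± 0.09 without replicate 2 (adjusted p = 0.00038). This was the only one of the 38 genes at or under 1/1.5 of the mean of the other day 6 libraries in replicate 2.

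Of the 7 ERAD genes, 3 were higher at day 6 (Edem1, Derl1 and Sel1l), 1 was lower (Herpud1) and 3 were uncalled, against 35.0% higher and 32.9% lower of all tested genes. The rises of Edem1, Derl1 and Sel1l depended on the scaling: with upper-quartile factors none of the 3 was called and Sel1l changed sign, and with library totals all 3 changed sign (log2 −0.089, −0.16 and −0.28). Relative to the median of all tested genes, 2 of the 7 lay below it under each of these scalings. Edem1, a lectin that hands misfolded glycoproteins to degradation, had 859, 809.9 and 895 CPM at day 6, against 609, 582 and 711 CPM in untreated cells (log2 0.43 ± 0.10, adjusted p = 0.00171 by edgeR with TMM). Derl1, a part of the retrotranslocation channel, had 44.7, 41.7 and 38.2 CPM, against 33.1, 31.6 and 32.4 CPM (log2 0.36 ± 0.12, adjusted p = 0.015). Sel1l, the adaptor of the ubiquitin ligase Hrd1, had 233, 253 and 247 CPM, against 203, 204 and 218 CPM (log2 0.23 ± 0.08, adjusted p = 0.0224). The day 6 libraries of these 3 genes were all above the untreated ones, and without replicate 2 the log2 values were 0.47, 0.36 and 0.20, all called with TMM. Derl1 was not called without day 6 replicate 1 (adjusted p = 0.0558), nor Sel1l without untreated replicate 1 or 2 or day 6 replicate 3 (adjusted p = 0.0516 to 0.0694).

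Herpud1, which recruits Hrd1 and carries the ERSE-II shown above, had 138, 129 and 156 CPM in untreated cells, then 125, 122 and 131 CPM at day 2, 93.2, 104 and 95.2 CPM at day 4 and 104, 112 and 101 CPM at day 6. Its day 4 and day 6 libraries were all below the untreated ones. It fell by 0.53 ± 0.09 at day 4 (adjusted p = 0.000471 by edgeR) and by 0.42 ± 0.09 at day 6 (adjusted p = 0.00101), or 0.47 without replicate 2. Syvn1, which encodes Hrd1, had 82.2, 76.4 and 65.3 CPM at day 6, against 65.8, 67.1 and 72.7 CPM in untreated cells, and Derl2 had 73.9, 67.6 and 67.9 CPM, against 58.5, 52.1 and 67.3 CPM. Neither passed (adjusted p = 0.249 and 0.0665 by edgeR), although Derl2 was called higher without untreated replicate 3 (adjusted p = 0.0167) and lower with library totals (log2 −0.28). Without replicate 2 the day 6 log2 values were 0.10 for Syvn1 and 0.26 for Derl2, neither called. Derl3 was at or under 1.67 CPM in every library, or 2 to 12 counts, and at day 6 its log2 value was −1.01 with TMM (adjusted p = 0.123 by edgeR), −1.53 without replicate 2 (adjusted p = 0.0607) and −1.50 with library totals (adjusted p = 0.0278).

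Of the 3 sensor genes, Ern1 fell, and Eif2ak3 and Atf6 rose with TMM. Ern1, which encodes IRE1, had 177, 138 and 180.0 CPM in untreated cells, then 151, 143 and 122 CPM at day 2, 139.7, 127 and 114 CPM at day 4 and 56.9, 62.9 and 68.7 CPM at day 6. The day 6 libraries were all below every other library. Ern1 fell by 1.39 ± 0.13 on the log2 scale at day 6 (adjusted p = 1.31e-06 by edgeR), of which 1.02 ± 0.13 came between days 4 and 6 (adjusted p = 6.99e-05), and the day 6 value was also −1.39 without replicate 2. Xbp1, whose messenger IRE1 splices, averaged 432 ± 7.19 CPM at day 6 and 476.3 ± 73.3 CPM in untreated cells (SD, n = 3 each) and was called at no day with TMM (log2 −0.14 at day 6, with and without replicate 2). It was called lower at day 6 with upper-quartile factors (−0.39, adjusted p = 0.0149 by edgeR) and library totals (−0.66, adjusted p = 0.000546). Counts per gene do not show the spliced form.

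Eif2ak3, which encodes PERK, had 57.8, 52.7 and 53.8 CPM in untreated cells, then 58.3, 53.9 and 58.8 CPM at day 2, 66.8, 65.7 and 65.2 CPM at day 4 and 110.3, 82.3 and 94.4 CPM at day 6. The groups at days 4 and 6 overlapped with neither each other nor the untreated one. Eif2ak3 rose by 0.80 ± 0.10 on the log2 scale at day 6 (adjusted p = 1.62e-05 by edgeR) and by 0.90 without replicate 2, and was also called higher by upper-quartile factors (0.55) and by library totals (0.28). The day 4 rise, 0.27 ± 0.10 (adjusted p = 0.0481 by edgeR), was not called when any 1 untreated, day 2 or day 4 library or day 6 replicate 3 was left out (adjusted p = 0.0581 to 0.129). Nor was the day 4 rise called by DESeq2 (adjusted p = 0.064) or by edgeR with relative log expression factors, upper-quartile factors or library totals (adjusted p = 0.0531, 0.158 and 0.2). Atf6, the third sensor, had 167, 182 and 191 CPM at day 4, against 124, 121 and 125 CPM in untreated cells, a rise of 0.54 ± 0.11 (adjusted p = 0.00162 by edgeR). At day 6 it had 139, 189 and 152 CPM, a rise of 0.37 ± 0.11 with TMM (adjusted p = 0.00816) that was not called with upper-quartile factors and changed sign with library totals (−0.13). Without replicate 2 the day 6 rise was 0.23 (adjusted p = 0.0236 by edgeR), and from day 4 to day 6 Atf6 was then called lower (−0.31, adjusted p = 0.00673), as it was with upper-quartile factors and library totals. In a fit of only the 2 groups the day 6 rise was not called (adjusted p = 0.0565).

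The paired regulators of eIF2α dephosphorylation, which ends the translational block set by PERK, went in opposite directions. Ppp1r15a, the stress-induced subunit GADD34, had 15.1, 11.5 and 13.2 CPM in untreated cells, then 10.8, 9.69 and 8.64 CPM at day 2, 9.59, 8.3 and 10.3 CPM at day 4 and 3.83, 5.78 and 4.49 CPM at day 6. Every Dox library was below every untreated one. It fell by 1.48 ± 0.19 on the log2 scale at day 6 (adjusted p = 2.37e-05 by edgeR), and by 1.67 without replicate 2. Ppp1r15b, the constitutive subunit CReP, had 595, 474.1 and 588 CPM at day 6, against 288, 351 and 317 CPM in untreated cells, with days 2 and 4 between 315 and 354 CPM. It rose by 0.79 ± 0.10 (adjusted p = 2.41e-05 by edgeR) and by 0.89 without replicate 2, and was also called higher by upper-quartile factors (0.54) and by library totals (0.27). Per length, Ppp1r15b averaged 98.9 ± 12.1 RPKM (counts scaled by depth and gene length) at day 6 and 57 ± 5.61 RPKM in untreated cells, while Ppp1r15a averaged 2.01 ± 0.424 RPKM at day 6 and 5.7 ± 0.775 RPKM in untreated cells (SD, n = 3 each). The constitutive subunit had the higher level per length in both groups.

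Ddit3, the stress-induced transcription factor CHOP, had 10.3, 11 and 15.6 CPM in untreated cells, then 8.49, 8.23 and 10.2 CPM at day 2, 8.99, 6.7 and 9.82 CPM at day 4 and 11.5, 15.6 and 15.6 CPM at day 6. It was lowest at days 2 and 4 and back in the untreated range at day 6. With TMM and all libraries the difference from untreated was called at no day. At day 4, where all libraries lay below the untreated ones, it was −0.53 ± 0.21 on the log2 scale (adjusted p = 0.0573 by edgeR). It was called lower at day 4 under 6 alternatives, namely upper-quartile factors, library totals, the replicate block and the fits without untreated replicate 1, day 6 replicate 1 or day 6 replicate 2 (adjusted p = 0.0306 to 0.0485). At day 6 the log2 difference was 0.21 (adjusted p = 0.374 by edgeR) and 0.14 without replicate 2. From day 4 to day 6 Ddit3 rose by 0.75 ± 0.21 (adjusted p = 0.0123 by edgeR), a step not called without day 4 replicate 2 (adjusted p = 0.0562) or with library totals (adjusted p = 0.185).

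**Figure D2:**
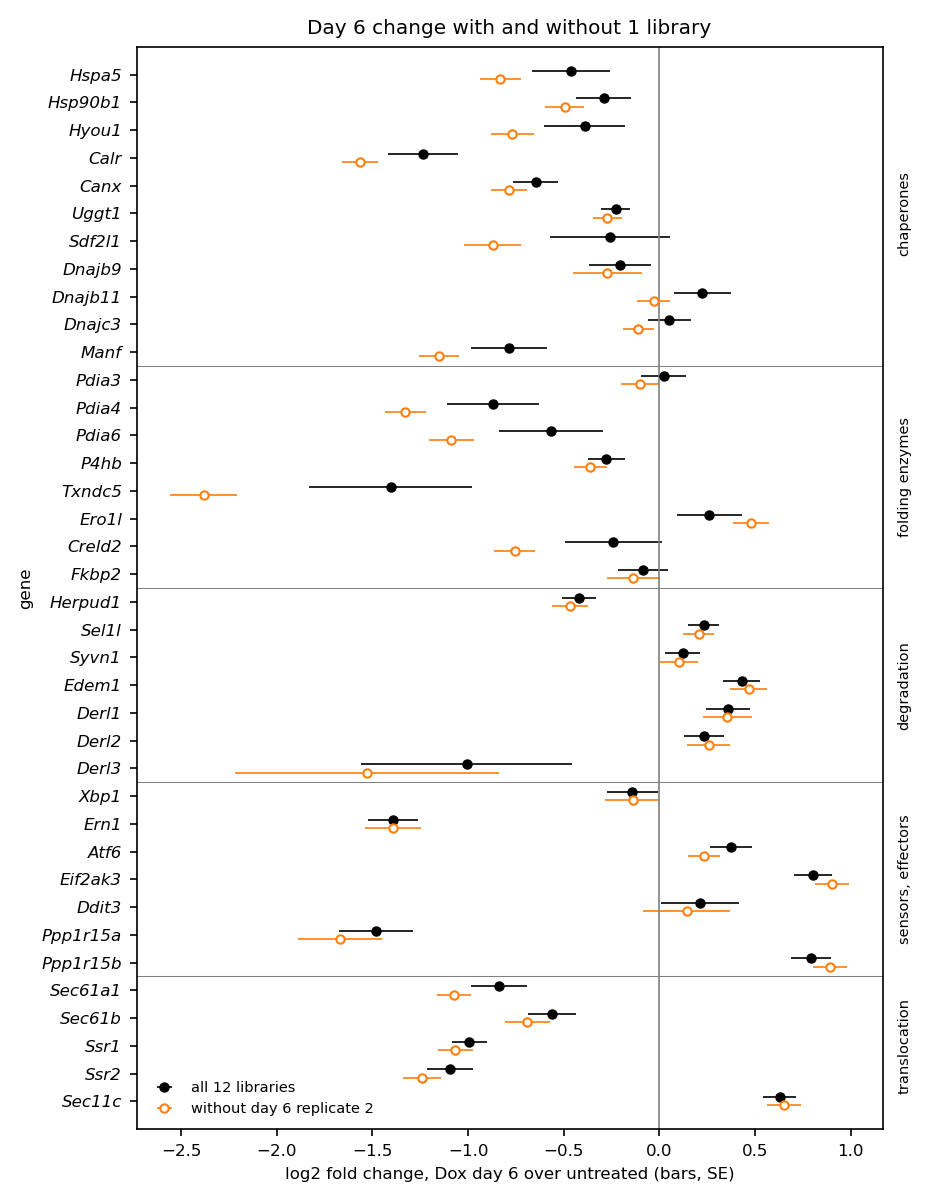
Log2 fold change at day 6 against untreated for the 38 genes, with standard errors, in all libraries and without day 6 replicate 2, genes grouped by role. Leaving the library out moves the chaperones and, other than Ero1l (up to 0.48), the folding enzymes down (Hspa5 to −0.83, Pdia6 to −1.09, Txndc5 to −2.38), while Ern1 is at −1.39 in both and Atf6 moves down to 0.23. The rises of Sel1l, Edem1, Derl1 and Atf6 change sign under scaling by library totals.

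The 5 genes of translocation and signal peptide removal were all called at day 6, 4 lower and 1 higher, against 32.9% and 35.0% of all tested genes. Ssr2, a subunit of the translocon-associated TRAP complex, had 278, 317 and 302 CPM in untreated cells, then 280.3, 275 and 278 CPM at day 2, 237, 199.8 and 194 CPM at day 4 and 122, 167 and 131 CPM at day 6. It stayed near the untreated level at day 2 and went down at each later step. The fall was 0.51 ± 0.12 on the log2 scale at day 4 (adjusted p = 0.00419 by edgeR) and 1.09 ± 0.12 at day 6 (adjusted p = 5.08e-06). Ssr1 of the same complex had 223, 263 and 231 CPM at day 6, against 446, 529.7 and 451 CPM in untreated cells, and fell by 0.99 ± 0.09 (adjusted p = 1.42e-06 by edgeR). Without day 6 replicate 2 the day 6 log2 values were −1.24 for Ssr2 and −1.07 for Ssr1.

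Sec61a1, the pore of the translocation channel, had 286, 446 and 298 CPM at day 6, against 543, 648 and 652 CPM in untreated cells. It fell by 0.84 ± 0.15 (adjusted p = 0.000228 by edgeR). Sec61b, a small subunit of the same channel, had 64.5, 84.3 and 68.3 CPM at day 6, against 97, 119 and 105 CPM in untreated cells, and fell by 0.56 ± 0.13 (adjusted p = 0.00158 by edgeR). Both groups of day 6 libraries were wholly below the untreated ones. Sec11c, a catalytic subunit of the signal peptidase, went the other way, with 94.6, 111 and 90.4 CPM in untreated cells, then 101, 108 and 102 CPM at day 2, 148, 140.4 and 138 CPM at day 4 and 157, 148 and 153 CPM at day 6. Its rise was in place by day 4 (log2 0.52 ± 0.09, adjusted p = 0.000424 by edgeR) and was 0.63 ± 0.09 at day 6 (adjusted p = 3.38e-05), but it was not called with library totals (0.11, adjusted p = 0.246). For Sec61a1, Sec61b and Sec11c the day 6 log2 values without replicate 2 were −1.07, −0.69 and 0.65.

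In time, the first changes that passed in the edgeR fit of all 12 libraries were at day 4. At day 2, 0 of the 38 genes were called in either direction by edgeR, against 1.45% of all tested genes (1.05% higher and 0.406% lower). At an unadjusted p under 0.05, 3 genes differed. DESeq2 called 1 gene, Calr, lower (adjusted p = 0.0464). Calr was also called lower by edgeR in a fit of only the 2 groups (adjusted p = 0.00488) and without day 6 replicate 2 (adjusted p = 0.000918). The day 2 values leaned to one side, with 33 of 38 log2 differences below 0 and a median of −0.15. Of all 12057 tested genes 5951 were above 0, with a median of −0.0038. With each library left out in turn, the median of the 38 ran from −0.197 without untreated replicate 1 to −0.098 without untreated replicate 2. In 10 genes the day 2 libraries were all below the untreated ones and in 1 gene all above, against 12.5% and 12.2% of all genes. At day 4, 10 genes were lower and 3 higher, against 20.2% and 22.1% of all tested genes and 42.4% called in either direction. The day 4 libraries were all below the untreated ones in 17 genes and all above in 5, against 29.2% and 29.2% of all tested genes. The lower ones were Calr, Manf and Dnajb9 of the chaperones, Ero1l, Herpud1, Ern1, Ppp1r15a, Sec61a1, Ssr1 and Ssr2, and the higher ones were Atf6, Eif2ak3 and Sec11c. Of these 13 genes, 11 had the same call at day 6, while Dnajb9 and Ero1l had none. The comparisons with untreated cells share the untreated libraries. The day 4 calls were near the threshold for several genes. Manf was not called when any 1 untreated, day 2 or day 4 library was left out (adjusted p = 0.0549 to 0.138), Ppp1r15a without untreated replicate 1 or 3, day 2 replicate 2 or any 1 day 4 library (0.0507 to 0.147), Ern1 without untreated replicate 1 or 3 or day 4 replicate 2 or 3 (0.0816 to 0.116) and Sec61a1 without day 4 replicate 2 (0.0506). Without untreated replicate 3 or day 4 replicate 2, 8 of the 38 genes were called at day 4. Without day 6 replicate 2, 20 of the 38 were called, near the 50.2% of all tested genes in that fit. With each library left out in turn, 3878 to 6143 of all tested genes were called at day 4.

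Between days 2 and 4, 4 genes fell (Herpud1, Ero1l, Ssr1 and Ssr2) and 2 rose (Atf6 and Sec11c), against 10.2% and 15.0% of all tested genes and 25.2% in either direction. Herpud1 and Sec11c kept this call with each library left out in turn, while the other 4 each lost it in at least 1 such fit. In this step 11 genes lay wholly below and 9 wholly above, against 24.9% and 25.2% of all tested genes. Between days 4 and 6, 7 fell (Canx, Txndc5, Ern1, Ppp1r15a, Sec61b, Ssr1 and Ssr2) and 6 rose (Ero1l, Sel1l, Edem1, Eif2ak3, Ddit3 and Ppp1r15b), against 22.6% and 23.6% of all tested genes and 46.3% in either direction. In this step 9 genes lay wholly below and 10 wholly above, against 26.5% and 26.6% of all tested genes. Canx, Txndc5, Sec61b, Sel1l, Edem1 and Ddit3 each lost the call with at least 1 library left out (adjusted p up to 0.158), and the other 7 kept it. Under library totals Sel1l and Edem1 changed sign in this step, and Eif2ak3 (0.13, adjusted p = 0.234) and Ddit3 (0.35, adjusted p = 0.185) were not called. Without day 6 replicate 2, 19 of the 38 genes fell and 5 rose between days 4 and 6, against 28% and 28% of all tested genes. Of the 38, Ssr1 and Ssr2 fell at both steps. A test over the 4 groups together called 21 of the 38 genes, against 68.7% of all tested genes.

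**Figure D3:**
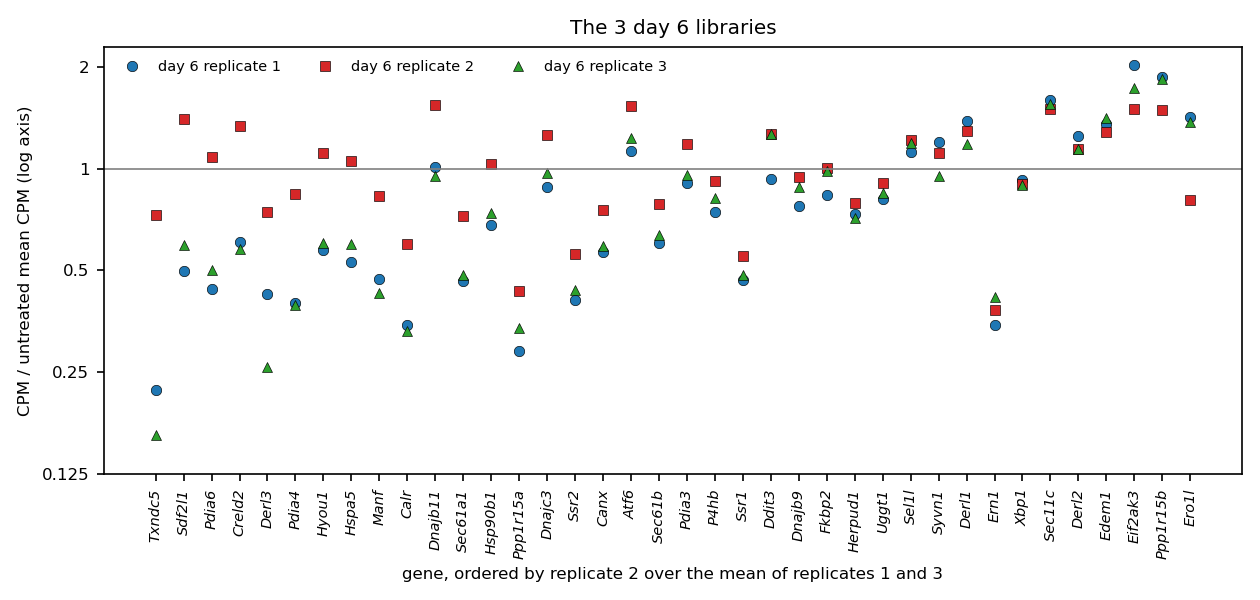
Level of each of the 38 genes in the 3 day 6 libraries as CPM over the untreated mean on a log axis, genes ordered by the ratio of replicate 2 to the mean of replicates 1 and 3. Replicate 2 is the highest of the 3 in 27 of the 38 genes, with the widest gap in Txndc5 (a ratio of 3.8), and the lowest in 6, with the widest gap in Ero1l.

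Of the 3 day 6 libraries replicate 2 was the highest in 27 of the 38 genes and the lowest in 6. It was at least 1.5 times the mean of replicates 1 and 3 in 12 genes, against 15.1% of all tested genes, while in each of the other 11 libraries at most 1 gene was that far above its own group. The 12 were Txndc5, Sdf2l1, Pdia6, Creld2, Derl3, Pdia4, Hyou1, Hspa5, Manf, Calr, Dnajb11 and Sec61a1, with ratios between 3.8 for Txndc5 and 1.53 for Sec61a1. By role the median ratio was 1.57 for the 11 chaperones, 1.69 for the 8 folding enzymes, 1.04 for the ERAD genes, 1.00 for the sensors and effectors and 1.27 for the translocation genes. The same library had the lower neutrophil and higher monocyte and T cell marker sums given above, with 129 counts of Lck and 71 of Cd8a, and the part of these in the result was not tested.

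Genes with an ERSE in the window had a median log2 value of −0.46 at day 6 (2 lower, 0 higher and 7 uncalled of 9, against 32.9% lower and 35.0% higher of all tested genes) and a median replicate 2 ratio of 1.77, with 5 of 9 at or above 1.5. The 21 genes whose window held none had a median of −0.21 (9 lower and 3 higher, against the same shares) and a median ratio of 1.14, with 4 at or above 1.5. These are descriptions of the libraries, and Derl3 with its low counts is among the 9.

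Genes of the same pathways outside the 38 were followed in 7 further lists, with 115 genes tested. At day 6, 60 of them were lower and 21 higher, against the 32.9% and 35.0% of all tested genes. The oligosaccharyltransferase, which attaches N-glycans to proteins entering the ER, was lower in 10 of 10 subunits, also without day 6 replicate 2. Rpn1, one of its scaffold subunits, had 273, 422 and 275 CPM at day 6, against 774, 847 and 791 CPM in untreated cells, and fell by 1.31 ± 0.14 on the log2 scale (adjusted p = 4.63e-06 by edgeR). Ostc and Krtcap2, accessory subunits, fell by 0.97 and 0.88 (adjusted p = 0.000171 and 0.000298).

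Other ER folding and glycan processing genes were lower in 15 and higher in 2 of 25, or 17 and 2 without day 6 replicate 2. Fkbp11, a prolyl isomerase of secretory cells, had 6.82, 15.6 and 4.68 CPM at day 6, against 77.2, 92.7 and 77.2 CPM in untreated cells, and fell by 3.15 ± 0.28 on the log2 scale (adjusted p = 1.61e-06 by edgeR). Pdia5 fell by 2.06, and Mogs, the glucosidase that makes the first cut in the N-glycan, fell by 1.55 (adjusted p = 0.000174 and 1.68e-07 by edgeR). Tmx3, a membrane-bound disulfide isomerase, had 323, 231 and 324 CPM at day 6, against 141, 134 and 124 CPM in untreated cells, and rose by 1.14 ± 0.12 (adjusted p = 3.31e-06), also under library totals (0.61). Ero1lb, the second ER oxidase, was highest at day 4, with 72.8, 69.6 and 77.1 CPM, where Ero1l was lowest. Its rise at day 6 was 0.32 with TMM (adjusted p = 0.0102 by edgeR), and its sign changed with library totals (−0.19).

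Translocation and signal recognition genes were lower in 12 and higher in 1 of 19, or 13 and 3 without day 6 replicate 2. Srp68, of the signal recognition particle, had 101, 152 and 122 CPM at day 6, against 304, 311 and 316 CPM in untreated cells, and fell by 1.31 ± 0.13 (adjusted p = 2.22e-06 by edgeR). Ssr4, a further TRAP subunit, fell by 1.18 and Sec61a2 by 0.99 (adjusted p = 6.04e-06 and 0.00682 by edgeR). Serp1, a small protein bound to the channel, was the 1 higher gene, at 1017, 1246 and 1035 CPM at day 6, against 665, 701 and 713 CPM in untreated cells (log2 0.67, adjusted p = 0.000144 by edgeR), and it was not called with library totals (0.16).

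The other ERAD genes were higher in 9 and lower in 3 of 21 with TMM, against 35.0% and 32.9% of all tested genes. With library totals, however, 1 was higher and 14 lower, while 7 of 21 lay below the median of all tested genes under both scalings. With TMM and no day 6 replicate 2, 8 were higher and 5 lower. Ube2j1, a ubiquitin-conjugating enzyme, and Man1b1, a mannosidase, rose by 0.53 and 0.51 with TMM (adjusted p = 0.000176 and 0.000111 by edgeR), and with library totals were at 0.014 and −0.011 and not called. Vimp, which anchors the extraction ATPase, fell by 1.01, the mannosidase-like Edem2 by 0.77 and the lectin Erlec1 by 0.44 (adjusted p = 5.96e-06, 2.17e-05 and 0.00863 by edgeR).

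Of 16 targets of PERK and its factor ATF4, 5 were higher and 6 lower, or 5 and 7 without day 6 replicate 2. With all libraries these counts were near the 35.0% and 32.9% of all tested genes. Slc7a11, the cystine transporter, had 25.8, 15.7 and 24.4 CPM at day 6, against 2.69, 4.73 and 2.44 CPM in untreated cells, and rose by 2.72 ± 0.33 (adjusted p = 1.35e-05 by edgeR). Sesn2 rose by 0.91 and Mthfd2 by 0.74 (adjusted p = 0.000165 and 0.000586 by edgeR), and neither was called with library totals (0.40 and 0.22). Trib3 and Chac1 were the other 2 higher genes, under 10 CPM and named after their values were seen. The serine synthesis enzyme Phgdh had 8.95, 33.5 and 11.3 CPM at day 6, against 194, 219 and 208 CPM in untreated cells, and fell by 3.49 ± 0.38 (adjusted p = 1.56e-05 by edgeR). Psat1, of the same route, fell by 1.61, and the tRNA ligase Eprs by 1.13 (adjusted p = 0.000841 and 4.47e-06 by edgeR). Atf4 itself averaged 129 CPM at day 6 and 119.9 CPM in untreated cells and was not called (adjusted p = 0.363 by edgeR).

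Of 8 processing proteases and related factors 3 were higher and 3 lower, near the 35.0% and 32.9% of all tested genes. The counts without day 6 replicate 2 were also 3 and 3. Creb3 and Atf6b, membrane-bound factors related to ATF6, were higher by 0.91 and 0.24 and the ER membrane protein Tmbim6 by 0.55 with TMM (adjusted p = 0.00053, 0.0424 and 0.000102 by edgeR). With library totals none of the 3 was called, and Atf6b changed sign (−0.27), also by upper-quartile factors (−0.0073). Atf6b lost its call without day 6 replicate 2 or untreated replicate 3 (adjusted p = 0.176 and 0.119). Creb3l2 fell by 1.13, Eif2s1, the eIF2α subunit that PERK phosphorylates, by 0.84, and Mbtps1, the protease that cuts ATF6, by 0.24 (adjusted p = 3.86e-06, 2.27e-05 and 0.0432 by edgeR).

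Heat shock proteins of the cytosol and mitochondria, outside the ER, were lower in 11 and higher in 1 of 16, or 12 and 0 of 17 without day 6 replicate 2. Hspd1, a mitochondrial chaperonin, had 59.6, 119.9 and 73.7 CPM at day 6, against 226, 304 and 272 CPM in untreated cells, and fell by 1.66 ± 0.21 (adjusted p = 2.34e-05 by edgeR). Hspa1a fell by 5.08 and its near-identical copy Hspa1b by 4.52 (adjusted p = 0.0063 and 0.00948 by edgeR), but untreated replicate 3, with 73 and 112 CPM, stood over 4.03 to 9.18 CPM in the other untreated libraries. Without it the falls were 2.66 and 2.05. The counts of these copies are uncertain where reads fit both. The higher gene was Bag3, a co-chaperone, at 0.37 (adjusted p = 0.0163 by edgeR), which was not called without day 6 replicate 2 and changed sign with library totals (−0.13).

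**Figure D4:**
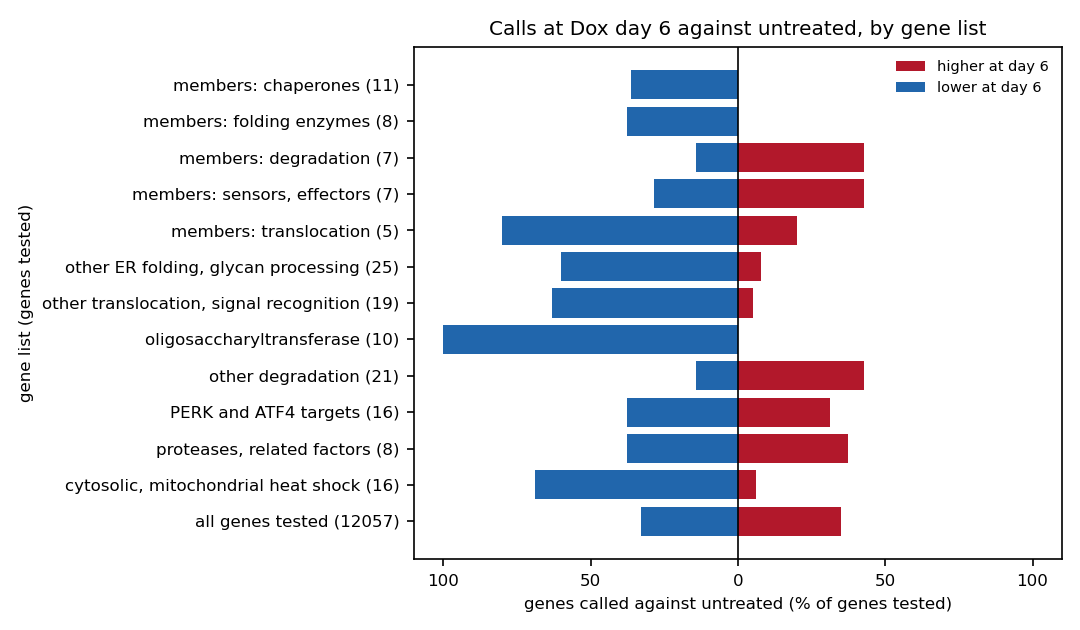
Share of the tested genes of each list called higher (right) or lower (left) at day 6 against untreated, with the number tested in brackets and all 12057 tested genes at the bottom. The oligosaccharyltransferase reaches 10 of 10 lower, and both ERAD lists lean to higher with TMM, a lean that turns to lower with library totals.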

How the data were processed

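Total RNA of sorted cells was prepared with a column kit and sequenced as standard Illumina libraries, per the labels' protocols. The authors deposited raw read counts per Entrez gene with a gene length, 1 file per library, with no normalisation seen in the values. Per the submitters' processing notes the build was mm10 and the tools included featureCounts, CASAVA 1.8.2, limma 3.22.0 and edgeR 3.8.2. Neither the aligner nor the strand setting is given in the labels, so reads of antisense partners cannot be told apart. Symbols came from RefSeq (GRCm38.p6) for 25275 of 27179 identifiers. In R 4.3.3, edgeR 4.0.16 fitted all 12 libraries by group (filterByExpr, TMM, robust quasi-likelihood, two-sided, 8 residual degrees of freedom), with adjustment over 12057 genes. The TMM factors were 0.737, 0.847 and 0.749 at day 6 and 1.02 to 1.15 elsewhere. The biological coefficient of variation was 14.3%. CPM use TMM library sizes, and RPKM add the deposited length. Alternatives were DESeq2 1.42.0, limma 3.58.1 voom, 3 scalings, 2 filters, fits limited to the pair of groups, the replicate block and each library left out. The procedure was tested on simulated data. Members and lists were chosen with earlier results of these data known. Any of the 38 genes may be named, and of each other list the 3 largest called rises and falls at day 6 of at least 10 CPM. A gene that this rule names among the other ERAD genes is not reported here.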

Additional observations from a re-analysis of the deposited data

How the results depend on the processing

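Counts of calls given here are of the 38 genes unless all genes are named, and the cause of each shift was not tested. With TMM 175 genes were called at day 2, and DESeq2 gave 424 and a fit of only the 2 groups compared 412. Of the 38, both gave 1 at day 2 in place of 0. Fits of only the 2 groups gave 13 in place of 6 between days 2 and 4 and 8 in place of 13 between days 4 and 6, where library totals gave 23. Of all tested genes, library totals gave 1331 higher and 6263 lower between days 4 and 6. The shares of all genes in the 2-group fits of these steps are not given here. Leaving out each library in turn gave 38 to 603 genes at day 2, 3878 to 6143 at day 4, 7626 to 8653 at day 6, 1876 to 4193 between days 2 and 4 and 4296 to 6853 between days 4 and 6. Of the 38 it gave 0 to 1, 8 to 20, 17 to 28, 2 to 11 and 9 to 24 in the same order, and 18 to 29 over the 4 groups. The highest of each came without day 6 replicate 2. Day 4 gave 8 without untreated replicate 3 or day 4 replicate 2, and the step from day 2 to day 4 gave 2 or 3 without day 2 replicate 1, day 2 replicate 3, day 4 replicate 2 or day 4 replicate 3. Against TMM, library totals moved the median of all genes by −0.51 and upper-quartile factors by −0.25 at day 6 (log2). In the same order, 28 and 21 of the 38 were then lower and 2 and 3 higher. Of all 12057 tested genes, 6764 and 5323 were lower and 2283 and 3173 higher. The share of all called genes that were higher was 25.2% and 37.3% in place of 51.6%. At day 4 that share was 39.1% and 41.2% in place of 52.2%, between days 2 and 4 35.1% and 43.8% in place of 59.6%, and between days 4 and 6 17.5% and 34.6% in place of 51.1%. Relative to that median, 24 of the 38 were below it at day 6 under each scaling. Signs turned at day 6 with upper-quartile factors for Sel1l (−0.018), and with library totals for Dnajc3 (−0.45), Pdia3 (−0.48), Sel1l (−0.28), Syvn1 (−0.39), Edem1 (−0.089), Derl1 (−0.16), Derl2 (−0.28) and Atf6 (−0.13). Between days 4 and 6 library totals turned Herpud1 (−0.29), Sel1l (−0.17), Edem1 (−0.11), Derl1 (−0.30) and Sec11c (−0.30). The replicate numbers did not pair the libraries (mean correlation 0.0057 over 18 same-numbered pairs, and 4 of 12 libraries closest to their own number). With the replicate block 0, 13 and 23 of the 38 were called at days 2, 4 and 6, 5 and 14 at the steps, and 21 over the 4 groups. The shares of all tested genes called with the replicate block are not given here, so these counts are not a result about the 38. Counting error is small for most of the 38 genes at this depth, and the low counts of Derl3 limit it.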
